A study of Bos taurus with 15 samples.

Results

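The cells described here were gated as epithelial cells of the adult (AD) cattle cecum and colon outside the tuft lineage, 379 barcodes from Cecum AD and 226 from Colon AD. By their RNA, given below, not all of them were epithelial. They made up 605 of the 18996 barcodes of these libraries that held 500 to 4000 genes and under 50000 UMIs (unique molecular identifiers, each standing for 1 captured RNA molecule). A barcode was taken when it held at least 1 UMI of *EPCAM*, the adhesion molecule of epithelial cells, and 0 UMIs of *PTPRC*, which encodes the leukocyte antigen CD45. It also had to hold 0 UMIs of *AVIL* and *GNG13*, which mark tuft cells. Over the whole series the same gate took 27161 of 132361 barcodes within the limits, from 172405 barcodes in 15 libraries. The measured UMIs of these 4 genes chose the cells, so their levels describe the gate and are no result. The gate of the newborn (NB) libraries, 592 cells of Cecum NB and 991 of Colon NB, is the comparison.

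The study profiled tissues of NB and AD cattle by droplet single-cell RNA sequencing, and the libraries analysed here are 1 per tissue and stage. The AD cecum and colon came from the same lactating Holstein dairy cow, and the NB tissues from calves that the labels do not tie to a library. The AD cecum was digested with a kit for lamina propria and the AD colon with a multi-tissue kit, whereas the NB tissues met EDTA and trypsin before the kit. Stage, animal and dissociation therefore cannot be told apart, no difference between stages has a replicate check, and no test was made. CPM below is the UMI count of a gene summed over the gated cells of a library, per 1000000 of all their UMIs. Intervals are exact 95% intervals, Poisson for CPM and Clopper-Pearson for shares, and cover counting error only.

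The epithelium of the cecum and colon is a single cell layer that is renewed from stem cells at the base of the crypts. Its absorptive colonocytes take up salt, water and the short-chain fatty acids that microbes make from fiber, and their carbonic anhydrases supply the bicarbonate and protons exchanged across the membrane. Goblet cells secrete the mucus layer, and enteroendocrine cells release peptide hormones. In the human colon a scarce absorptive type, often called the *BEST4* cell, is known by the chloride channel *BEST4*, the proton channel *OTOP2*, the carbonic anhydrase *CA7* and the transcription factor *SPIB*. The epithelium also carries antibodies into the lumen through the receptor *PIGR* and secretes antimicrobial peptides.

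The gate took 3.93% (3.55 to 4.33) of the barcodes within the limits in Cecum AD and 2.42% (2.12 to 2.75) in Colon AD, against 9.26% in Cecum NB and 20.6% in Colon NB. The gated cells held a median of 10479 UMIs in Cecum AD, 9102 in Colon AD, 7104 in Cecum NB and 8221 in Colon NB, out of libraries of 48674267 to 83536439 UMIs. No barcode was gated in more than 1 of these libraries (0 for each pair), while up to 5 gated barcodes of a library also occurred, ungated, in another. *KRT8*, a keratin of simple epithelia, had at least 1 UMI in 82.6% of the gated cells of Cecum AD and in 77.0% of those of Colon AD. In the cells with exactly 1 *EPCAM* UMI, 99 in Cecum AD and 64 in Colon AD, the share with *KRT8* was 46.5% and 39.1%, against 95.4% and 92.0% in the cells with at least 2. The cells with 1 *EPCAM* UMI were also shallower, with medians of 3904 and 3580.5 UMIs against 14461 and 11929, and those of Cecum AD had a median mitochondrial share of 48.7% against 12.7%. With 0 *EPCAM* UMIs and the other limits kept, 7.69% of 1248 barcodes of Cecum AD and 7.46% of 1234 of Colon AD held *KRT8*.

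The AD gate was not purely epithelial by its RNA. *CD3E*, a subunit of the T cell receptor complex, was found in 19% of the gated cells of Cecum AD and 18.6% of those of Colon AD, against 3.04% in Cecum NB and 3.83% in Colon NB. The 13 T and NK cell genes summed to 486 CPM in Cecum AD and 411 CPM in Colon AD, and to 15690 and 16043 CPM in the leukocyte barcodes (*PTPRC* present, *EPCAM* 0) of the same libraries. *JCHAIN*, the joining chain of secreted antibodies, was found in 42.2% and 51.3% of the AD gated cells, against 28.5% in Cecum NB and 14.8% in Colon NB. In Cecum AD its share was 45.7% of the cells with at least 2 *EPCAM* UMIs, 32.3% of those with 1, 40.3% of the *EPCAM* barcodes left out by *PTPRC* and 34.5% of those with 0 *EPCAM* UMIs, and in Colon AD the corresponding shares were 45.7%, 65.6%, 56.2% and 59.5%. The NB gates held other RNA: the 12 stromal genes summed to 3461 CPM in Cecum NB, 155 in Colon NB and 408 in Colon AD, and to 0.7 CPM in Cecum AD, where 9 of the 12 were at 0. *COL1A2*, a collagen chain, was found in 38.3% of the gated cells of Cecum NB. The 14 tuft cell genes other than *AVIL* and *GNG13* summed to 13.6 CPM in Cecum AD and 30.2 CPM in Colon AD, and mast cell, glial and erythroid genes to at most 4.8 CPM each in the AD gates. The median mitochondrial share of UMIs was 14.9% in Cecum AD and 14.2% in Colon AD, against 9.96% and 8.30% in the NB gates, and 90 and 50 AD cells were at 40% or above. This share counts 13 mitochondrial protein genes by symbol and no unnamed gene. ENSBTAG00000043567 and ENSBTAG00000043570, unnamed leading genes of cluster 4 below, were higher in NB. They stood at 27844 and 10993 CPM in Cecum AD and 87914 and 29758 in Cecum NB. In Colon AD they stood at 43706 and 18238 CPM, against 78042 and 20345 in Colon NB. A share with them was not computed, so the stage difference and the limits below hold for the named genes only. Each comparison below was therefore repeated on a stricter gate, chosen after seeing the data. It took at least 2 *EPCAM* UMIs, a mitochondrial share under 20% and 0 UMIs of *CD3E*, *CD3D*, *JCHAIN*, *COL1A2*, *PECAM1* and *CSF1R*, and kept 86 cells of Cecum AD and 47 of Colon AD. Barring *JCHAIN* falls unevenly on the stages. Among cells with at least 2 *EPCAM* UMIs it was found in 45.7% in Cecum AD and 45.7% in Colon AD, against 26.5% in Cecum NB and 13.9% in Colon NB. Whether a call lost on this gate came from the removal of other cells was not tested.

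Clustering of the 605 AD cells gave 12 clusters, which describe what the gate holds. Cluster 1, of 106 cells (84 from Cecum AD), was absorptive-like and was led by *OTOP2*, *CA7*, *HPCAL4* and the guanylate cyclase ligands *GUCA2B* and *GUCA2A*. Cluster 7, of 36 cells, was also absorptive-like but was led by the water channel *AQP8* and the exchangers *SLC26A3* and *SLC9A3*. Cluster 6 was goblet-like (50 cells, 43 from Cecum AD), cluster 9 proliferation-like (23 cells) and cluster 12 enteroendocrine-like (8 cells). Cluster 8, of 35 cells, was T and NK cell-like, with 85.7% of its cells at exactly 1 *EPCAM* UMI and *KRT8* at 15.2 CPM.

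The other 6 clusters were not named. Cluster 2, of 90 cells (81 from Colon AD), was led by *MSMB*, a secreted protein first known from semen, and *IDO1*, the enzyme that degrades tryptophan. Cluster 3, of 78 cells (66 from Cecum AD), had the complement genes *C3* and *C9* among its leading genes, and cluster 5, of 67 cells, the peptides *DEFB7* and *DEFB*, the acute-phase gene *M-SAA3* and *OLFM4*. Clusters 4 and 10, of 70 and 21 cells, had median mitochondrial shares of 57.8% and 64.9%. Cluster 11, of 21 cells, was led by *JCHAIN*, *ADAMDEC1* and *COL3A1* among its named genes, and 81.0% of its cells held exactly 1 *EPCAM* UMI. Because each tissue is 1 library, a cluster drawn mostly from 1 of them cannot be told apart from that library.

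**Figure D1:**
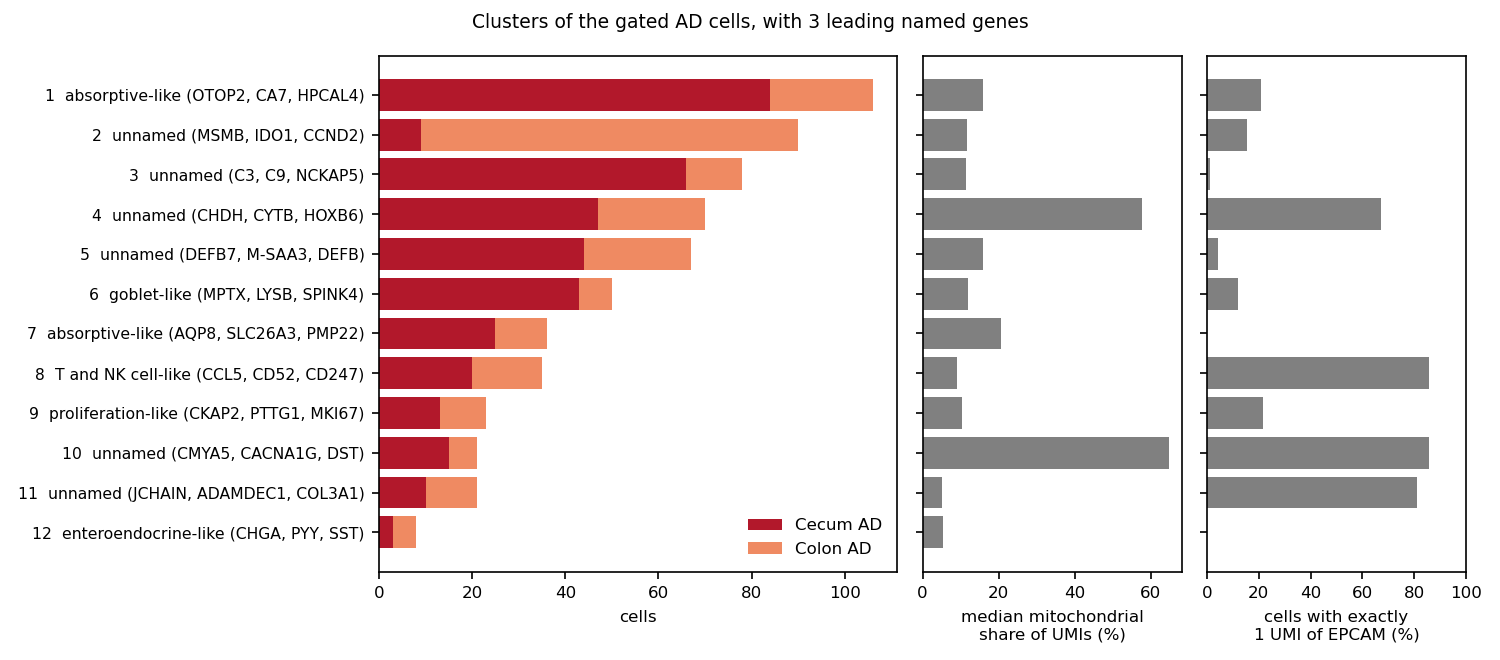
The 12 clusters of the gated AD cells, each labelled with 3 of its leading named genes; bars give the number of cells by library, the median mitochondrial share of UMIs (%) and the share of cells with exactly 1 UMI of *EPCAM* (%). Clusters 4 and 10 stand out by mitochondrial share (57.8% and 64.9%), and clusters 8, 10 and 11 by cells with 1 *EPCAM* UMI (85.7%, 85.7% and 81.0%).

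A gene was called when it was past 2-fold on the log2(CPM + 5) scale with intervals that did not overlap, among genes with a mean of at least 10 CPM in the libraries compared. In the cecum 435 of 7003 genes (6.21%) were higher in AD and 631 (9.01%) higher in NB. The balance in the cecum depended on the gate and other settings. It was 451 and 341 with at least 2 *EPCAM* UMIs, 471 and 391 with lineage markers barred, and 525 and 420 on the stricter gate. Without the clusters of other cells it was near even (435 and 422), as with the mean over cells (672 and 674). With a mean of at least 50 CPM it was 189 and 171. It did not turn with a mitochondrial share under 40% (423 and 668) or with called doublets removed (429 and 604). In the colon 998 of 7125 (14.0%) were higher in AD and 305 (4.28%) higher in NB. Of 6594 genes measured in both tissues, 255 (3.87%) were higher in AD in both, 135 (2.05%) higher in NB in both, and 65 went opposite ways. The median log2 ratio of all genes was not 0 but 0.11 in the cecum and 0.28 in the colon, so an unshifted gene lay slightly above 0. When libraries were scaled by the median of ratios instead, the calls became 512 higher in AD and 623 higher in NB in the colon, and 328 and 722 in the cecum. The AD libraries share a cow, so the tissues are not independent animals. A list member that passed the low-value limit through its level in 1 stage alone had to differ, so counts over lists are descriptions, to be read against these percentages.

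The *BEST4* cell genes had some of the largest ratios between stages. *OTOP2* stood at 143 CPM (132 to 155) in Cecum AD and 228 CPM (208 to 250) in Colon AD, against 0 UMIs in Cecum NB and 1.78 CPM (1.07 to 2.78) in Colon NB. Taking 3 UMIs over the group as the limit that a count of 0 allows, *OTOP2* was at least 277-fold higher in AD in the cecum, and it was 128-fold (81.1 to 215) higher in the colon. *CA7* stood at 447 and 714 CPM in the AD gates, at 30.6 CPM in Colon NB and at 2 UMIs in Cecum NB. It was 23.4-fold higher in AD in the colon, where 1 cell of Colon NB held 68.7% of its UMIs, and its ratio in the cecum was 1294 with a counting interval of 358 to 10690. Both genes were at or near 0 in the NB cecum, and in the NB colon 1 cell also held 47.4% of the 19 *OTOP2* UMIs.

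*SPIB* was found at 208 CPM in Cecum AD, 325 in Colon AD, 2.25 in Cecum NB and 11.7 in Colon NB, a 92.4-fold and a 27.7-fold difference. It was not particular to the cecum and colon: under the same gate it stood at 274 CPM in Duodenum AD and 207 in Jejunum AD. *OTOP2* had 0 UMIs in Duodenum AD and was at 32.2 CPM in Jejunum AD. *SPIB* is also expressed by B cells, and 6.5% of the leukocyte barcodes of Colon NB held it after thinning, against 0.52% of those of Colon AD. *BEST4* itself was lower, at 23.9 and 30.2 CPM in the AD gates, with 0 UMIs in Cecum NB and 4 in Colon NB, so it was at least 46.2-fold higher in AD in the cecum and 80.5-fold (29.9 to 305) higher in the colon. Of the 7 list members, 6 passed the low-value limit in each tissue and were past 2-fold higher in AD in both. In Cecum NB the whole list summed to 7.43 CPM, so its members could pass only through their AD level and the count there is no result. In Colon NB the same held for *OTOP2* (1.78 CPM) and *BEST4* (0.375 CPM). *HES4*, a Notch target, was at 3 or 4 UMIs in the AD gates and did not pass. The receptor *NOTCH2* and the homeobox factor *MEIS1*, named here after their values were seen, were 51.3-fold (17.1 to 252, with 3 UMIs in Cecum NB) and 8.0-fold higher in AD in the cecum and 27.4-fold and 30.4-fold higher in the colon. In Colon NB the whole list summed to 47.4 CPM, most of it *CA7* (30.6 CPM) and *SPIB* (11.7 CPM). *NOTCH2* and *MEIS1* could therefore also pass in the colon only through their AD level. The count in the colon is thus no result either, apart from *CA7* and *SPIB*. On the stricter gate all 6 stayed past 2-fold in both tissues, under the same limit.

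**Figure D2:**
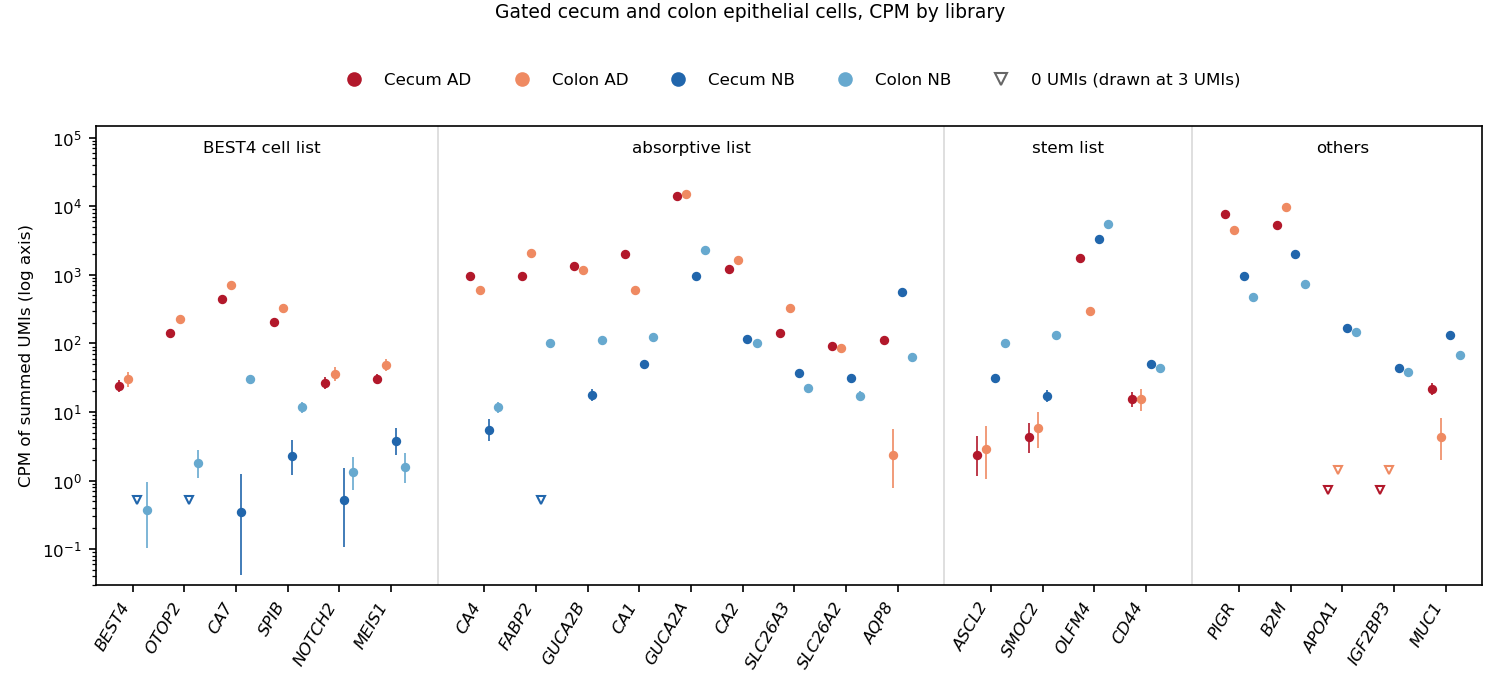
CPM of the named genes in the gated cells of the 4 libraries on a log axis, with bars for the exact 95% Poisson interval and genes grouped by list; a gene with 0 UMIs is drawn at the floor of 3 UMIs. *OTOP2*, *CA7*, *SPIB*, *BEST4* and *CA4* lie higher in both AD libraries than in both NB libraries, and the stem genes *ASCL2* and *SMOC2* lie lower.

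Nearly all cells with *OTOP2* also held *CA7*, but *CA7* was found more widely. In Cecum AD 49 cells held *OTOP2*, and *CA7* was found in 95.9% of them, against 17.9% of the 330 gated cells without it. In Colon AD the corresponding counts were 36 of 40 cells and 14.0% of 186 cells. Of the 106 cells of Cecum AD with *CA7*, 47 held *OTOP2*, and *CA7* was also found in 36.7% of the *SLC26A3* cells against 26.3% of the rest in Cecum AD and in 40.0% against 25.1% in Colon AD. *BEST4* was found in 73.5% of the *OTOP2* cells against 10.9% of the rest in Cecum AD, and in 45.0% against 8.1% in Colon AD. *CA4*, a membrane-bound carbonic anhydrase, followed the same split, with 49.0% against 7.3% in Cecum AD and 50.0% against 3.2% in Colon AD, but was not limited to it: the cells with *SLC26A3* also held *CA4* more often than those without (28.3% against 9.7% in Cecum AD and 31.4% against 7.9% in Colon AD). The median depth of the *SLC26A3* cells was 18618 UMIs against 9474 in Cecum AD, and 8180 against 9474 in Colon AD. *GUCA2B* was found in 89.8% against 31.2% in Cecum AD and 67.5% against 22.0% in Colon AD, and *KRT20*, a keratin of mature surface cells, in 93.9% against 66.1% and 82.5% against 44.6%. *SLC26A3*, the chloride and bicarbonate exchanger of colonocytes, went the other way in Cecum AD, at 2.0% of the *OTOP2* cells against 17.9% of the rest, and was at 12.5% against 16.1% in Colon AD. *SPIB* was found in 71.4% of the *OTOP2* cells and in 32.7% of the rest in Cecum AD. In Colon AD its shares were 75.0% and 37.1%. *MEIS1* was at 57.1% against 15.2% and 55.0% against 23.7%. *NOTCH2* was at 30.6% (18.3 to 45.4) against 18.8% (14.7 to 23.4) and 35.0% against 19.4%, with overlapping intervals in both tissues. *SPIB*, *MEIS1* and *NOTCH2* were thus not limited to the *OTOP2* cells. The *OTOP2* cells were not the deeper ones: their median was 9108 UMIs against 10731.5 in Cecum AD and 5291 against 9174.5 in Colon AD. *OTOP2* and *CA7* were also leading genes of cluster 1, which was built on the same cells, so these shares describe the cells and were not tested.

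**Figure D3:**
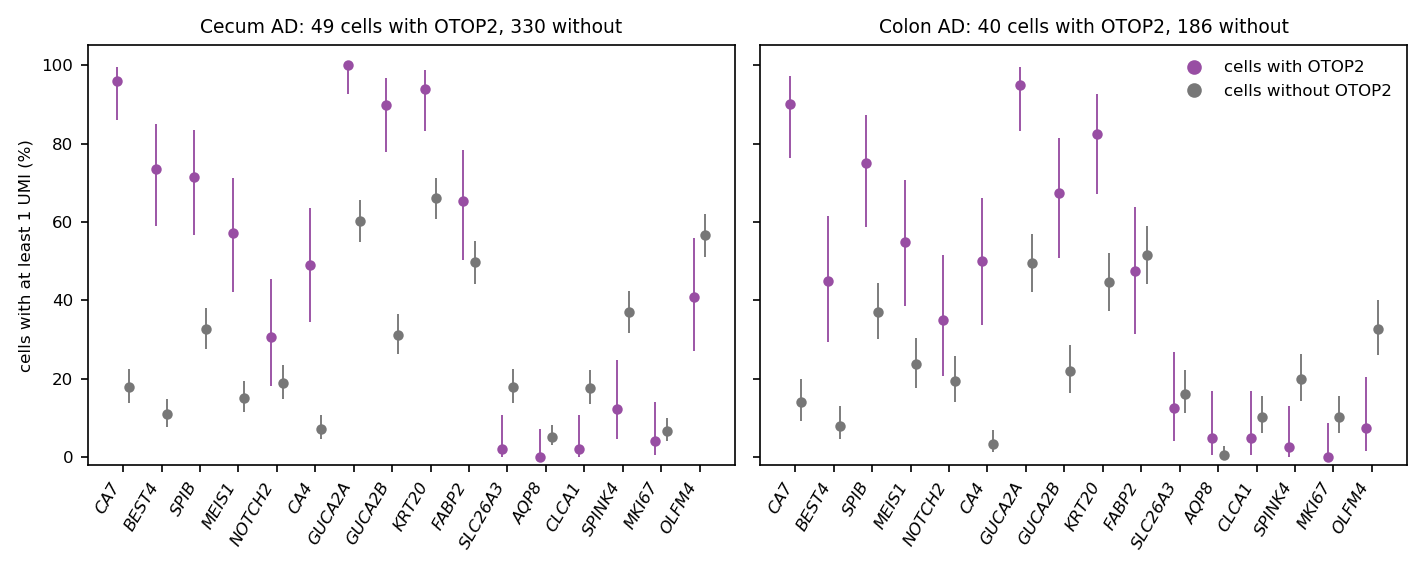
Share of gated cells with at least 1 UMI of each gene (%), for cells with and without *OTOP2* in Cecum AD (49 and 330 cells) and Colon AD (40 and 186 cells), with exact 95% binomial intervals. *CA7* shows the widest gap (95.9% against 17.9% in Cecum AD), while *SLC26A3* in Cecum AD is lower in the *OTOP2* cells (2.0% against 17.9%).

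Cells with both *OTOP2* and *CA7* numbered 47 of 379 in Cecum AD, or 12.4% (9.26 to 16.1), and 36 of 226 in Colon AD, or 15.9% (11.4 to 21.4). They held 99.7% and 97.5% of the *OTOP2* UMIs and 83.2% and 86.6% of the *CA7* UMIs of the gate. Their median depth was 9921 UMIs and 2347 genes in Cecum AD, and 4141.5 UMIs and 965 genes in Colon AD. Under the same gate such cells were 6 of 231 (2.60%) in Jejunum AD, 19 of 1316 (1.44%) in Rectum NB, 8 of 668 in Ileum NB and 3 of 991 (0.303%) in Colon NB. Cecum NB had 0 of 592, which allows a share of up to 0.507% by the limit of 3 counts and 0.621% by the exact interval, and the 8 remaining libraries also had 0. The exact intervals of Cecum AD and Colon AD lay above those of the other libraries, except that the interval of Salivary Gland NB (0 of only 35 cells) reached 10.0% and overlapped that of Cecum AD. Thinned to 1000 UMIs per cell, *OTOP2* was found in 6.20% of the gated cells of Cecum AD (371 cells, 8 shallower ones left out) and 9.13% of those of Colon AD (219 cells, 7 left out), against 12.9% and 17.7% unthinned. In the leukocyte barcodes, with median depths of 3704 and 3986 UMIs, the thinned shares were 0.067% and 0.013%, far below those of the gate.

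**Figure D4:**
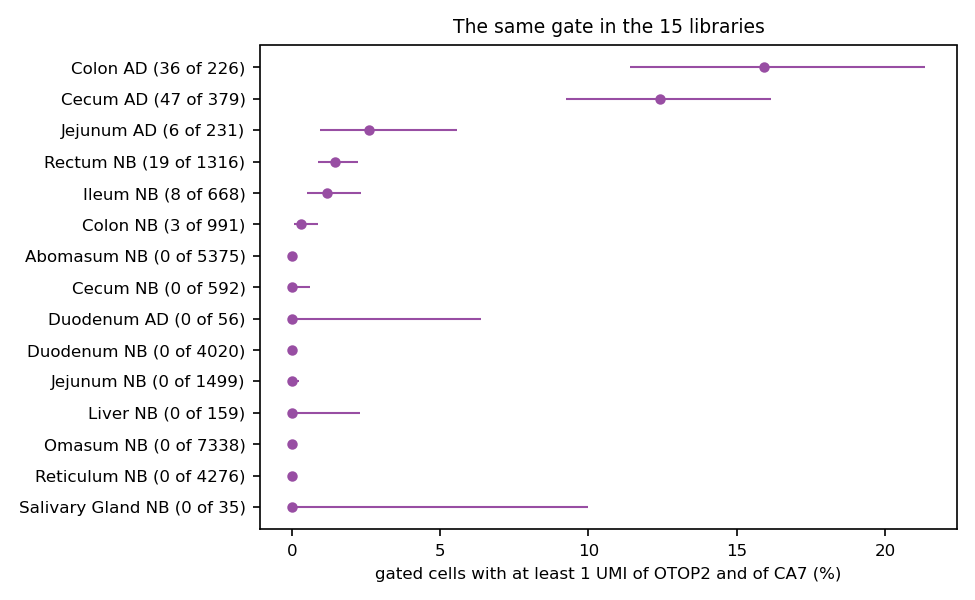
Share of gated cells holding at least 1 UMI of both *OTOP2* and *CA7* (%) in the 15 libraries, with exact 95% binomial intervals and cell counts beside the library names. Colon AD (15.9%) and Cecum AD (12.4%) are highest, and the next is Jejunum AD at 2.60%.

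Of the absorptive genes, carbonic anhydrases, guanylin peptides and *FABP2* were higher in AD in both tissues, while the list as a whole kept one direction in the colon but not in the cecum, where its median turned to -0.71 on the stricter gate. Of 19 members in the files, 8 of 17 measured were past 2-fold higher in AD and 3 higher in NB in the cecum, and 11 of 16 and 1 in the colon, with list medians of 0.92 and 1.88 on the log2 scale. *CA4* stood at 949 CPM in Cecum AD, 602 in Colon AD, 5.53 in Cecum NB and 11.7 in Colon NB, a 172-fold and a 51.4-fold difference. Its NB level was not low in every tissue. Under the same gate it stood at 430 CPM in Liver NB, 139 in Rectum NB and 28.3 in Ileum NB, and lower in the other NB libraries. In Rectum NB 11.6% of the gated cells held *CA4*, against 12.7% in Cecum AD and 11.5% in Colon AD. *CA2*, the cytosolic enzyme, was 10.3-fold and 16.3-fold higher in AD, and *CA1* 39.6-fold and 4.95-fold higher. *FABP2*, the intestinal fatty acid binding protein, was at 970 CPM in Cecum AD and 2054 in Colon AD, with 0 UMIs in Cecum NB and 100.0 CPM in Colon NB. It was thus at least 1871-fold higher in AD in the cecum and 20.6-fold higher in the colon. The same gate held *FABP2* at 6115 CPM in Duodenum NB and 4356 in Jejunum NB, so its NB level was not low in every tissue either.

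*GUCA2A*, which encodes guanylin, was among the most abundant genes of the AD gate after the mitochondrial genes, at 14237 CPM in Cecum AD and 14886 in Colon AD, against 967 in Cecum NB and 2311 in Colon NB. After thinning, 47.4% of the cells of Cecum AD held *GUCA2A* against 23.8% in Cecum NB, whereas in the colon the share did not follow the level, at 41.1% in AD against 47.1% in NB. *GUCA2B*, for uroguanylin, was 76.0-fold and 10.7-fold higher in AD. Under the same gate the highest NB level was 685 CPM for *GUCA2B* (Duodenum NB) and 5833 CPM for *GUCA2A* (Ileum NB). Not all absorptive genes went that way. *AQP8* was at 113 CPM in Cecum AD, 2.40 in Colon AD, 556 in Cecum NB and 63.9 in Colon NB, and so 4.93-fold and 26.6-fold higher in NB. *SLC26A3*, 3.88-fold higher in AD in the cecum (144 against 37.2 CPM), was called higher in NB there on the stricter gate and was no longer past 2-fold in the colon. *CD3E* and the share of the named mitochondrial genes moved with the stage as given above, and their part in these differences was not tested.

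Ion and water transport genes were mixed. In the cecum 8 of 17 measured members were higher in AD and 3 higher in NB, with a median of 0.92, and in the colon 8 of 17 and 3, with a median of 0.87. The carbonic anhydrases *CA4*, *CA2* and *CA1* were 3 of the 6 members higher in AD in both tissues. On the stricter gate the cecum had 6 members in each direction and the colon 5. *AQP1*, a water channel also found in vessels, was at 23.5 and 17.7 CPM in the AD gates and 149 and 128 CPM in the NB gates, 6.37-fold and 7.19-fold higher in NB. The 8 endothelial genes summed to 15.6 CPM in Cecum AD and 271 in Cecum NB, but to 49.4 CPM in Colon AD and 50.7 in Colon NB, so they were higher in NB in the cecum and near equal in the colon, and their part in the *AQP1* values was not tested.

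Among the butyrate genes most did not differ past 2-fold. *SLC16A1*, the monocarboxylate transporter MCT1, was at 137 CPM in Cecum AD and 224 in Colon AD, against 53.0 in Cecum NB and 25.9 in Colon NB, so 2.58-fold and 8.65-fold higher in AD. In the cecum 2 of 20 measured members were higher in AD and 1 higher in NB, and in the colon 3 of 20 were higher in AD and 0 higher in NB. *ECHS1* and *ACADS*, enzymes of short-chain fatty acid oxidation, had ratios of 1.06 and 1.43 toward AD in the cecum. Read against all genes (6.21% and 14.0% higher in AD), 2 and 3 of 20 members are near the background. On the stricter gate *SLC16A1* kept its call in the colon and lost it in the cecum (log2 ratio -0.06).

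Goblet cell genes differed in direction between the tissues. In the cecum 6 of 11 measured members were higher in AD and 0 higher in NB (median 1.62), and in the colon 3 of 12 were higher in AD and 6 higher in NB (median -1.06). *CLCA1*, a secreted protein of mucus, was at 782 CPM in Cecum AD, 169 in Colon AD, 16.2 in Cecum NB and 51.6 in Colon NB, so 48.1-fold and 3.28-fold higher in AD, but 1 cell held 52.1% of its UMIs in Colon AD. *TFF3*, the trefoil factor of goblet cells, was 15.4-fold and 2.91-fold higher in AD, and *BCAS1* 11.1-fold and 3.31-fold. *SPINK4* was 14.5-fold higher in Cecum AD (8360 against 575 CPM) but 7.49-fold higher in Colon NB (10173 against 1359 CPM in Colon AD). Among the membrane mucins *MUC20* was 4.97-fold and 3.42-fold higher in AD, and *MUC1* 6.18-fold and 15.9-fold higher in NB. Thinned, *CLCA1* was found in 9.70% of the cells of Cecum AD and 3.65% of Colon AD, against 0.513% and 1.32% in NB and 0.12% and 0.067% in the AD leukocyte barcodes. On the stricter gate *CLCA1*, *TFF3* and *MUC20* were no longer past 2-fold higher in Colon AD, and *CLCA1* had a log2 ratio of -1.72 there, while all 3 kept their call in the cecum.

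Stem cell genes were higher in NB where they differed. None of 11 measured members was past 2-fold higher in AD in either tissue (0 and 0), while 3 in the cecum and 7 in the colon were higher in NB, with medians of -0.46 and -1.28. *ASCL2*, a transcription factor of crypt stem cells, was at 2.39 CPM in Cecum AD (10 UMIs) and 2.88 in Colon AD (6 UMIs), against 30.9 in Cecum NB and 103 in Colon NB, so 12.9-fold and 35.8-fold higher in NB. *SMOC2* was 3.93-fold and 22.8-fold higher in NB, and *CD44*, the hyaluronan receptor, 3.25-fold and 2.89-fold. *OLFM4* stayed abundant in Cecum AD at 1736 CPM against 3355 in Cecum NB, whereas Colon AD had 295 CPM against 5483 in Colon NB, an 18.6-fold difference. *LGR5*, named after its values were seen, was low in all 4 libraries and did not pass the low-value limit, with 4 UMIs in Cecum AD, 1 in Colon AD, 13 in Cecum NB and 72 in Colon NB, or 0.958, 0.480, 2.25 and 6.75 CPM.

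Of the proliferation genes more were higher in NB than in AD, by counts that depended on the gate. Of 18 measured members in the cecum and 19 in the colon, 0 were higher in AD in either tissue and 9 and 6 were higher in NB, 5 of them in both. Without the upper limit of 4000 genes, which left out 273 cells of Cecum NB and 395 of Colon NB but 47 of Cecum AD and 29 of Colon AD, 11 and 15 were higher in NB, 10 of them in both. With at least 2 *EPCAM* UMIs the counts fell to 6 and 4, 3 of them in both, and on the stricter gate 4 in the cecum and 8 in the colon were higher in NB, 3 of them in both, and 3 in the colon were higher in AD. The replication helicase subunits *MCM2*, *MCM5* and *MCM6* were 3.55-fold, 3.24-fold and 4.16-fold higher in NB in the cecum and 3.94-fold, 3.08-fold and 3.31-fold in the colon. With a pseudocount of 20 CPM these 3 low genes were past 2-fold in neither tissue. *STMN1*, a tubulin regulator, was 4.16-fold and 4.13-fold higher in NB. *MKI67*, a marker of proliferating cells, was past 2-fold in neither tissue. It was at 35.2 CPM in Cecum AD and 45.6 in Colon AD, against 51.1 in Cecum NB and 45.6 in Colon NB. The share of cells with *MKI67* was lower in AD, at 2.70% and 2.28% of the thinned cells against 4.96% and 4.78% in NB, and unthinned at 6.33% (4.10 to 9.28) and 8.41% (5.14 to 12.8) against 15.9% (13.0 to 19.1) and 15.04% (12.9 to 17.4). The thinned intervals of AD and NB overlapped, and the leukocyte barcodes held *MKI67* in 1.1% and 1.9% in AD and 5.9% and 8.7% in NB, so the thinned shares of the NB gates lay below those of their leukocytes.

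Enteroendocrine genes rested on few cells. *SST*, for somatostatin, was at 1048 CPM in Cecum AD with 100% of its UMIs in 1 cell, and had 0 UMIs in Colon AD. *PYY*, the peptide of L cells, was at 1522 CPM in Cecum AD and 3.36 in Colon AD, with 88% of the cecal UMIs in 1 cell. *CHGA*, the granule protein of the whole lineage, was at 154 CPM in Cecum AD and 2543 in Colon AD, and 1 cell held 79% and 45% of it. These levels describe single cells. Log2 ratios of these genes are only listed further below, among those that went opposite ways in the tissues.

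**Figure D5:**
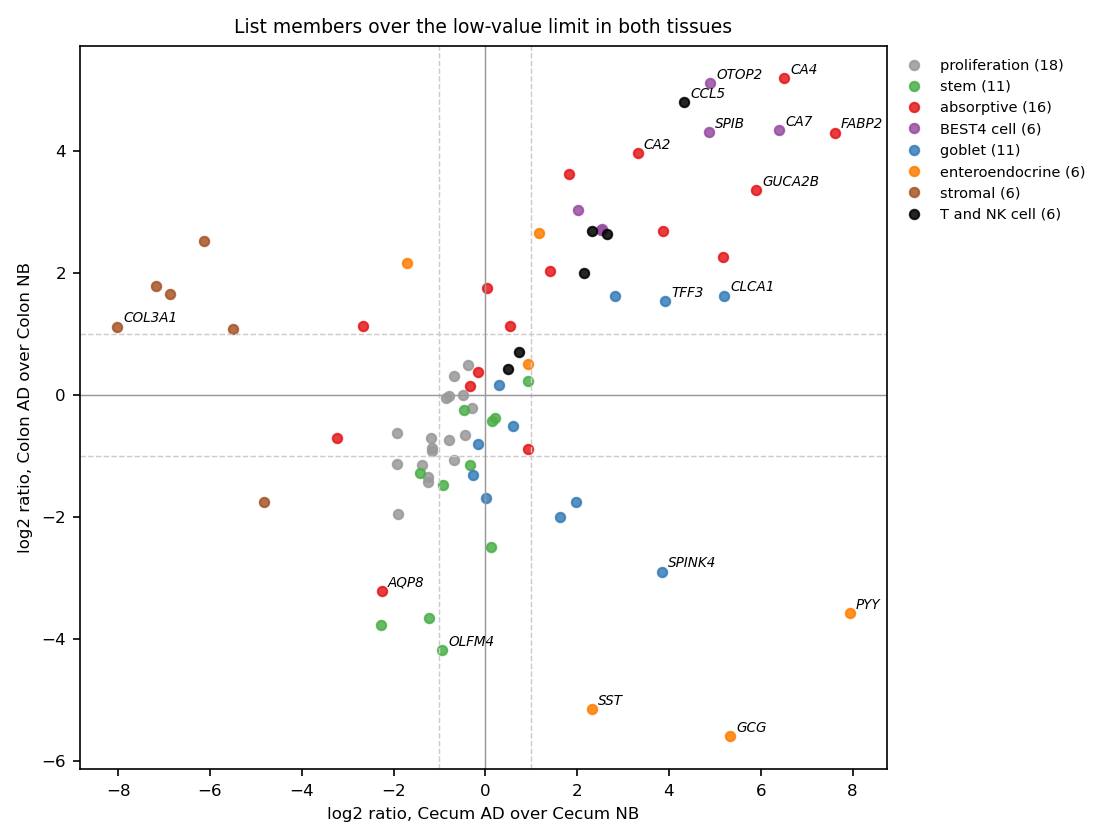
Each point is a list member measured in both tissues, with its log2 ratio of AD over NB in the cecum (x axis) and in the colon (y axis), colored by list. The *BEST4* cell genes lie in the upper right (medians 3.70 and 3.66), but passed the low-value limit in the cecum only through their AD level. In the colon the same held for *OTOP2*, *BEST4*, *NOTCH2* and *MEIS1*. The median stem gene lies below 0 on both axes (-0.46 and -1.28). Of the 6 stromal genes 5 lie at the upper left, lower in Cecum AD and higher in Colon AD. That direction in the colon turned with at least 2 *EPCAM* UMIs (median from 1.38 to -2.55).

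Among the defense genes the antibody transporter *PIGR* was the only one called higher in AD in both tissues. *PIGR* was at 7641 CPM (7557 to 7725) in Cecum AD and 4507 (4416 to 4599) in Colon AD, against 957 in Cecum NB and 481 in Colon NB, so 7.99-fold and 9.37-fold higher. It was also spread over the cells, with at least 1 UMI in 76.8% and 64.8% of the thinned AD cells, against 28.9% and 23.6% of the NB cells and 1.3% and 0.52% of the AD leukocyte barcodes. *DEFB1*, a beta-defensin, was 4.25-fold and 66.0-fold higher in NB and at 4 UMIs in Colon AD, and *S100A12*, a calcium-binding alarmin, was 2.07-fold and 12.6-fold higher in NB. *EBD*, the enteric beta-defensin, was the top gene of Cecum AD outside the mitochondria at 30552 CPM, against 12516 in Colon AD, 8730 in Cecum NB and 16198 in Colon NB. It has near-identical relatives (*DEFB*, *DEFB7*, *LAP*) between which reads can be split, so its level is uncertain. In the cecum 8 of 15 measured members were higher in AD and 5 in NB, and in the colon 2 of 11 and 4.

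The interferon-related genes were higher in AD in the colon, with 14 of 15 measured members called and 0 higher in NB (median 2.32), against 4 and 5 of 15 in the cecum (median 0.06). The 4 called in both were of class I antigen presentation: *B2M*, the class I light chain, was 2.68-fold and 13.3-fold higher in AD, the peptide transporter *TAP1* 2.68-fold and 11.6-fold, and the immunoproteasome subunits *PSMB8* and *PSMB9* 2.67-fold and 2.29-fold in the cecum and 6.11-fold and 8.60-fold in the colon. *B2M* reached 5402 CPM in Cecum AD and 9778 in Colon AD, against 2012 and 738 CPM in NB. The interferon list summed to 6571 and 11962 CPM in the AD gates, and to 15220 and 15474 CPM in the AD leukocyte barcodes. The T and NK cell genes summed to 486 and 411 CPM in the AD gates against 55.5 and 44.0 in NB, and their part in these values was not tested. *IFI27* went opposite ways, at 17.2 CPM in Cecum AD against 678 in Cecum NB, and at 104 in Colon AD against 6.28 in Colon NB. The class II genes were lower in Cecum AD: *CD74*, the invariant chain, was at 50.8 CPM there, 256 in Colon AD, 990 in Cecum NB and 207 in Colon NB. The myeloid genes, which are rich in class II, summed to 61.8, 82.0, 302 and 255 CPM in the same order, and their part in the class II values was not tested.

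Of the tight junction genes 2 of 9 measured were higher in AD in the cecum and 5 of 9 in the colon, 1 of them in both, and of the keratins 3 of 4 in each tissue. *CDH1*, for E-cadherin, was 2.12-fold and 3.32-fold higher, *KRT8* 2.65-fold and 3.45-fold, *KRT19* 2.34-fold and 2.83-fold, and the junction protein *CGN* 2.14-fold and 3.22-fold. *KRT20* stood at 1070 CPM in Cecum AD, 551 in Colon AD, 481 in Cecum NB and 96.0 in Colon NB. In the cecum *KRT19*, *KRT20*, *CDH1* and *CGN* were no longer past 2-fold on the stricter gate, whereas *KRT8* was, and in the colon all 5 kept their call. Without the upper gene limit no keratin (0 of 4) was past 2-fold in the cecum, and of the 18 epithelial genes 0 were higher in AD in both tissues, against 4 with it.

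Of the genes leading the NB side in both tissues, several had 0 or 1 UMI in the AD gates. *S100G*, the vitamin D-dependent calcium-binding protein calbindin-D9k, was at 1352 CPM in Cecum NB and 871 in Colon NB, and had 1 UMI in each AD gate, so the ratios of 5645 and 1816 carried counting intervals of 1013 to 223003 and 326 to 71719. In the same gate of Duodenum AD *S100G* stood at 755 CPM, in 10 of 56 cells. *APOA1*, the main apolipoprotein of high-density lipoprotein, was at 167 and 149 CPM in the NB gates and had 0 UMIs in both AD gates, at least 232-fold and 104-fold lower, but stood at 47.2 CPM (27.0 to 76.6, with 16 UMIs in 2 of 56 cells) in Duodenum AD and at 47.9 CPM (17 of 231 cells) in Jejunum AD. *SLC13A2*, a transporter of citrate and succinate, was at 149 and 40.7 CPM in NB and also had 0 UMIs in AD, at least 207-fold and 28.3-fold lower. *IGF2BP3*, an RNA-binding protein of fetal tissues, was at 44.4 and 38.3 CPM in NB with 0 UMIs in AD, at least 61.8-fold and 26.6-fold lower, and its level in the NB leukocyte barcodes was higher than in the NB gates (68.1 CPM in Cecum NB and 51.4 in Colon NB). *APOA1*, *SLC13A2* and *IGF2BP3* were thus below the detection limit of the AD gates, which was 0.718 CPM in Cecum AD and 1.44 CPM in Colon AD. *PTI* and the *GZMB* gene ENSBTAG00000053015, also among these leading genes, stood higher in the NB leukocyte barcodes than in the gate, *PTI* at 269 and 614 against 103 and 97.5 CPM and *GZMB* at 252 and 298 against 77.8 and 54.0 CPM, and were the top 2 genes of a mast cell-like cluster of 13 NB cells. The heat shock protein *CRYAB* was 24.7-fold and 15.3-fold higher in NB. The lipid list as a whole had 4 of 7 measured members higher in NB in the cecum and 3 of 7 in the colon, with 1 higher in AD in each.

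The other genes leading the AD side in both tissues were a mixed group. *CFD*, complement factor D, was at 5747 CPM in Cecum AD and 9700 in Colon AD, against 260 in Cecum NB and 335 in Colon NB, so 22.1-fold and 29.0-fold higher, and was found in 45.8% and 52.5% of the thinned AD cells. Under the same gate *CFD* was higher still in Duodenum AD (21026 CPM) and Jejunum AD (30944 CPM). It stood at 4624 CPM in Duodenum NB and 3634 in Jejunum NB. In the leukocyte barcodes *CFD* was found in 2.3% of both AD libraries but in 26% of Cecum NB and 8.3% of Colon NB. *PLAC8* was 17.6-fold and 16.2-fold higher in AD, at 438 and 477 CPM. *CCL5*, a chemokine of T and NK cells, was 30.2-fold and 82.4-fold higher but stood at 287 and 201 CPM in the gate against 8707 and 8345 CPM in the AD leukocyte barcodes. The gene without a name ENSBTAG00000047700, which led the ranking, had 39% and 41% of its AD UMIs in 1 cell of each library. It stood at 4464 CPM in the gate of Cecum AD and 9060 in that of Colon AD. In the leukocyte barcodes of these libraries it was higher, at 9865 and 10581 CPM. In cluster 11, which *JCHAIN* also led, it stood at 201498 CPM, in 90.5% of the cells, against 182 CPM in the other clusters. On the stricter gate *CFD*, *PLAC8* and *CCL5* remained past 2-fold in both tissues, and *CD247*, a T cell receptor subunit that gate does not bar, was no longer called (log2 ratios of 0.37 and 1.14). *CD3D*, *CD3E* and *JCHAIN* are barred by that gate and could not be called on it.

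Of the detoxification genes the bile salt and conjugate exporter *ABCC3* was 3.09-fold and 3.03-fold higher in AD (no longer past 2-fold in the cecum on the stricter gate), and the epoxide hydrolase *EPHX2* 3.70-fold and 7.09-fold. Stress genes lay lower in Cecum AD, where 14 of 19 measured were higher in NB, whereas the colon had 3 and 3 of 20. *ATF3* was 35.0-fold and 4.07-fold, *NR4A1* 11.5-fold and 3.86-fold, and *IER3* 12-fold and 4.09-fold higher in NB. Genes of this kind are known to respond to tissue dissociation, which differed between the stages, and between the AD tissues, and cannot be told apart from them here. The reference genes stayed within 2-fold in the cecum, with 0 of 9 called, and 1 of 9 was higher in NB in the colon, but with the median of ratios 1 of 9 and 5 of 9 were higher in NB.

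Between the AD tissues, 102 of 7031 genes (1.45%) were higher in Cecum AD and 234 (3.33%) in Colon AD, and 136 and 152 when scaled by the median of ratios. The tissues were digested with different kits, so tissue and dissociation cannot be told apart here either. Of the immediate early and stress genes 14 of 19 measured were higher in Colon AD and 0 in Cecum AD (median -1.29), and *EGR1*, *DUSP1* and *FOSB* were among the leading genes of cluster 2, which came mostly from Colon AD. *LYSB*, a stomach-type lysozyme with near-identical relatives (*LYZ1*, *LYZ*), was at 7858 CPM in Cecum AD and 24.5 in Colon AD. *MPTX*, a pentraxin, was 30.5-fold, the cystatin *CSTA* 35.7-fold, and the protease inhibitor *PI3* 26.3-fold higher in Cecum AD. All 4 were also found in the NB libraries. In the NB colon *LYSB* was at 872 CPM, *MPTX* at 2644, *CSTA* at 64.4 and *PI3* at 3597. *CSTA* and *PI3* were higher in the NB cecum than in the AD cecum, at 791 against 359 CPM and 3318 against 1288 CPM. *LYSB* and *MPTX* were leading genes of the goblet-like cluster 6, at 55029 and 5037 CPM inside it against 77.6 and 2.47 CPM outside, and that cluster held 43 cells of Cecum AD and 7 of Colon AD. *SPINK1*, another protease inhibitor, was at 14639 CPM in Cecum AD and 4294 in Colon AD.

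On the colon side *MSMB* was at 445 CPM in Colon AD with 0 UMIs in Cecum AD, at least 620-fold higher, and in 16.9% of thinned Colon AD cells. *MSMB* also had 0 UMIs in Cecum NB and was at 1.69 CPM in Colon NB. *IDO1* was at 308 CPM in Colon AD and 3.35 in Cecum AD, a 92.0-fold difference, and it stood at 3.97 CPM in Cecum NB and 0.375 in Colon NB. *IDO1* was thus high in 1 of the 4 libraries. *ADAMDEC1*, *APOE*, *COL3A1* and *CXCL14*, which also led on the colon side, belong to stromal or myeloid cells in most tissues. Among the AD cells these genes were concentrated in cluster 11, each in 19% of its 21 cells. In the order named they stood there at 8705, 1963, 1842 and 1438 CPM. In the other clusters they stood at 2.8, 2.96, 0.658 and 0.329 CPM. The stromal list had 5 members higher in Colon AD and 0 in Cecum AD, the sums being 408 and 0.7 CPM. The part of stromal or myeloid cells in the colon-side genes was not tested. The *BEST4* cell list had 0 members past 2-fold in either direction between the AD tissues, with *OTOP2* 1.59-fold, *CA7* 1.60-fold, *SPIB* 1.56-fold and *BEST4* 1.26-fold (0.906 to 1.75) higher in Colon AD. The absorptive list had 4 in each direction, *CA1* being 3.28-fold and *AQP8* 47.0-fold higher in Cecum AD and *FABP2* 2.12-fold higher in Colon AD.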

How the data were processed

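Gene-by-barcode UMI count matrices were deposited by the authors, 1 per library, with no normalization. The submitters' processing notes name Cell Ranger 3.1.0, the study's methods name the genome build ARS-UCD1.2, and the annotation release is not given in the sources used here. Gene symbols are those of the deposited files, so genes with near-identical copies are uncertain. The 4 cecum and colon libraries held 48674267 to 83536439 UMIs.

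Barcodes were gated as described, and UMIs were summed per library over the gated cells and expressed as CPM. Log2 ratios used a pseudocount of 5 CPM and genes with a mean of at least 10 CPM, leaving out *EPCAM*, *PTPRC*, *AVIL* and *GNG13*, which chose the cells. A ratio understates the change of low genes. A call was a log2 ratio of at least 1 with exact 95% Poisson intervals apart. Folds in the text are ratios of CPM without the pseudocount, and a group at 0 was set to the floor of 3 UMIs. Shares of cells were taken after thinning each cell to 1000 UMIs, and unthinned.

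Gated AD cells were clustered on log counts per 10000 with 2000 variable genes, 30 principal components, 15 neighbors and Leiden resolution 1, without batch correction. A cluster was named from its marker list, and the thresholds for naming were set after seeing the data. Doublets were called by Scrublet with an expected rate of 0.8% per 1000 barcodes and removed only as an alternative (11, 10, 34 and 31 gated cells of Cecum AD, Colon AD, Cecum NB and Colon NB).

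The gated cells and gene lists were chosen with earlier results of these data known. Genes are named as up to 4 members per list (those called the same way in both tissues first, then those with most AD UMIs), the 10 leading genes in each direction per comparison, the 10 most abundant per AD gate, and the 10 leading genes of each cluster. Calls, intervals and thinning were tested on simulated data. Python 3.11.15 was used with scanpy 1.11.5, leidenalg 0.10.2 and scikit-learn 1.9.0 for clusters and doublets, scipy 1.17.1 and numpy 2.4.6 for counts and intervals, pandas 2.3.3 for tables and matplotlib 3.10.9 for plots. Alternatives were other gates, scalings, pseudocounts, filters, folds, thinning depths, cluster settings and the mean over cells. Some named genes are not reported here.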

Additional observations from a re-analysis of the deposited data

Results flagged for a closer look

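For 21 list genes the ratio of AD over NB was past 2-fold in opposite directions in the cecum and the colon. Each ratio compares 1 library with 1 other, the difference between the tissues was not tested, and values are log2 ratios for the cecum and then the colon.

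Goblet cell genes on this list were *SPDEF* (1.62 and -2.01) and *ATOH1* (1.97 and -1.77), both transcription factors of the secretory lineage, and *SPINK4* (3.85 and -2.90). The shares of goblet-like cells given above differed in the same directions, and their part was not tested. The hormone genes *PYY* (7.94 and -3.58), *GCG* (5.33 and -5.60) and *SST* (2.32 and -5.16) went the same way as these goblet cell genes, and *CHGA* went the other way (-1.71 and 2.16). These hormone levels rest on few cells. The antibacterial protein *BPI* stood at 1.65 and -2.56.

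Lower in Cecum AD and higher in Colon AD were the stromal genes *COL1A1* (-6.87 and 1.65), *COL1A2* (-7.17 and 1.78), *COL3A1* (-8.02 and 1.12), *DCN* (-6.12 and 2.52) and *LUM* (-5.51 and 1.08). The direction in the colon turned with at least 2 *EPCAM* UMIs, where the 12 stromal genes summed to 6.08 CPM in Colon AD against 112 in Colon NB (408 and 155 in the whole gate) and the list median went from 1.38 to -2.55. *COL3A1* stood at 1842 CPM in cluster 11 of the AD cells, in 19% of its 21 cells, and at 0.658 CPM in the other clusters. The interferon-induced genes *ISG15* (-3.14 and 1.36), *MX1* (-2.11 and 1.75), *IFI6* (-4.22 and 1.51), *IFI27* (-4.94 and 3.27) and *OAS1Y* (-2.78 and 2.32) had the same signs. So had *TMIGD1* (-2.66 and 1.12), the exporter *ABCG2* (-1.65 and 1.26) and the early response gene *FOSB* (-2.21 and 1.25).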

How the results depend on the processing

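No paired analysis was possible because each tissue and stage has 1 library, and for the same reason no replicate could be left out. The depth of the AD gates (4176129 UMIs in Cecum AD and 2085323 in Colon AD) limits genes to above 0.718 and 1.44 CPM.

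The share of barcodes in the gate, 3.93% in Cecum AD and 2.42% in Colon AD, was 3.09% and 1.91% with a mitochondrial share under 40%, 2.90% and 1.73% with at least 2 *EPCAM* UMIs, 1.77% and 0.888% with lineage markers barred, and 0.948% and 0.524% on the stricter gate, chosen after seeing the data. Without an upper gene limit Cecum AD gave 4.38%. The mitochondrial and gene limits were applied also to the barcodes that a share is taken of, so these shares do not all have the same base. Unthinned, *OTOP2* was found in 12.9% and 17.7% of the cells, *CLCA1* in 15.6% and 9.29% and *MKI67* in 6.33% and 8.41%, and *OTOP2* in 9.27% of Cecum AD cells thinned to 2000 UMIs.

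In the following, counts of genes past 2-fold are given in the order AD and NB. In the cecum (435 and 631) they became 112 and 338 at 4-fold, and 189 and 171 with a mean of at least 50 CPM. The AD side became 236 with a pseudocount of 20 CPM (NB side 421) and 672 with the mean over cells (674). The NB side became 341 with at least 2 *EPCAM* UMIs (AD side 451), 391 with lineage markers barred (471), 420 on the stricter gate (525) and 1081 with no filter (523). In the colon (998 and 305) they became 191 and 78 at 4-fold, 381 and 128 at 50 CPM, 464 and 167 with the pseudocount of 20, and 512 and 623 with the median of ratios. Genes called in both tissues (255 and 135) became 54 and 25 at 4-fold, 113 and 38 at 50 CPM, 135 and 57 with the pseudocount of 20, and 165 and 215 with the median of ratios. Cecum AD against Colon AD (102 and 234) became 39 and 69 at 4-fold, 54 and 84 at 50 CPM, and 66 and 123 with the pseudocount of 20. Its colon side became 152 with the median of ratios, 353 with a pseudocount of 1, 387 with no filter and 415 with the mean over cells. A higher fold or filter tests fewer genes or calls fewer by construction, and the cause of the other shifts was not tested.

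Of 39 list medians of at least 0.5 in size on the log2 scale, 6 changed sign under at least 1 alternative (10 of 498 values), and of 11 smaller ones 7 did (24 of 143 values). Of the former, the stromal list of the colon turned to -2.55 with at least 2 *EPCAM* UMIs and to -2.90 without the clusters of other cells (chosen after seeing the data). The myeloid list of the colon turned to 0.41 with at least 2 *EPCAM* UMIs, 0.94 with lineage markers barred, 1.18 without those clusters and 1.44 on the stricter gate, where that of the cecum turned to 0.30 and the absorptive list of the cecum to -0.71. The keratin list of the colon turned to -0.013 with no filter on low values, and the lipid list of the colon to 0.53 with a mean of at least 50 CPM. The cause was not tested. The AD cells formed 12 clusters, 11 at Leiden resolution 0.5 and 13 with 15 principal components, where the clusters led by *OTOP2* and by *GUCA2B* with *CA7*, of 42 and 71 cells, were separate and unnamed.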
